A study of Mus musculus with 8 samples.

Results

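The genes described here form the antioxidant system of the cell: the transcription factor NRF2 and its inhibitor Keap1, the enzymes that make, use and recycle glutathione, the thioredoxin system, the peroxiredoxins, the superoxide dismutases and the metallothioneins. They were chosen by function, as 42 named genes, with earlier results of these data known. A gene was taken as measured where at least 1 probe set of the array carried its symbol and no other. Of the 42 genes, 39 were measured, on 67 of the 22626 probe sets tested, and Prdx1, Prdx5 and Prdx6 were not. Each gene is represented by its brightest probe set, among 12393 genes in all. Catalase and enzymes assigned to the endoplasmic reticulum (ER) were left out by the rule.

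Total RNA came from cultured mouse fat cells on 8 Affymetrix arrays, 1 per sample. The labels name the cell type as F442A, a preadipocyte line that stores fat when differentiated, and give 3T3L1 as the cell line and Swiss as the background strain. In the sXBP1 group, 4 samples were infected with adenovirus for the spliced form of mouse XBP1, the transcription factor made when the nuclease IRE1 splices Xbp1 messenger RNA during ER stress. In the GFP group, 4 samples were infected with adenovirus for green fluorescent protein. Both groups thus carried virus, from day 6 to 8 of differentiation, for 4 to 6 days. Nothing in the labels says whether the samples came from separate cultures, and p-values cover only how much these samples varied, which may be technical variation.

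NRF2, encoded by Nfe2l2, is held in the cytoplasm and marked for degradation by Keap1. When oxidants or electrophiles modify Keap1, NRF2 accumulates, pairs with a small MAF protein and binds antioxidant response elements in the promoters of genes for glutathione synthesis, quinone and haem breakdown and thioredoxin reduction. Because this control acts on the protein, the level of Nfe2l2 messenger RNA alone does not report it. In fat cells these enzymes also clear the reactive aldehydes that come from oxidised lipids.

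Signals are on a linear scale, were made with MAS5 according to the submitters' processing notes, and are comparable between arrays for 1 probe set but not between probe sets. Log2 changes are sXBP1 minus GFP, on quantile-normalized log2(signal + 16), and are given ± the standard error of the limma fit, with 4 arrays per group throughout. A gene is said to have risen or fallen where the limma p-value, adjusted by the Benjamini-Hochberg method over all 22626 probe sets, was under 0.05. Median signal per array was 135 to 153.9 in the GFP group and 117.3 to 139.65 in the sXBP1 group. The Gapdh 3' to 5' signal ratio, which reflects RNA integrity, was 0.810 to 0.820 on GFP arrays and 0.775 to 0.802 in the sXBP1 group (exact permutation p = 0.0286, two-sided, the smallest possible with groups of 4). Its part in the results was not tested. The brightest Xbp1 probe set gave 9888 ± 283 in GFP and 10319 ± 417 in sXBP1 samples (SD, n = 4; limma adjusted p = 0.271). Whether its probes detect the viral transcript was not analysed here.

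Markers of the labelled cell type were present. For comparison with the counts that follow, 12.9% of all 12393 genes rose and 14.4% fell. Among the 7637 genes called present on all 4 arrays of a group, 19.3% rose and 22.4% fell. Of 7 measured adipocyte markers, among them Adipoq (adiponectin) and Pparg, 6 fell in sXBP1 samples and 0 rose. Fabp4, the brightest, did not pass on its brightest probe set (-0.02 ± 0.04, adjusted p = 0.765), a call shared by 3 of its 4 probe sets. The summed signal of the 7 markers was 41186 to 46033 on GFP arrays and 32381 to 39025 on sXBP1 arrays. Such sums are weighted to the brightest probe sets. The mean log2 difference of the 7 markers from the GFP mean was -0.41, -0.43, -0.82 and -0.96 on sXBP1 arrays 1 to 4. Of 5 preadipocyte and fibroblast markers 2, Dlk1 and Thy1, fell, with summed signals of 39449 to 44241 on GFP and 36585 to 40420.4 on sXBP1 arrays. Pdgfra, Col1a1 and Col3a1 did not pass on their brightest probe sets. Each of these genes had 2 probe sets, of which 1 shared that call and the other passed. Of 7 macrophage and leukocyte markers, Cd68, Lyz2 and Csf1r rose, and the summed signal was 539.8 to 609 on GFP arrays and 1156 to 2233 on sXBP1 arrays. The defining markers Ptprc, the leukocyte antigen CD45, and Itgam, the integrin CD11b, were called present on 0 of 8 arrays, and Adgre1 changed by -0.12 ± 0.16 (adjusted p = 0.667). Of 4 endothelial markers 0 passed by limma and 1, Tek, was under 0.05 before adjustment, and Pecam1 and Kdr were called present on 0 of 8 arrays. The endothelial sum was 36.4 to 76.4 on GFP and 45.5 to 64.9 on sXBP1 arrays. What part these shifts have in the antioxidant genes was not tested, and in bulk RNA fewer cells of a type and less RNA per cell cannot be told apart.

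The antioxidant genes did not move as one group. Of the 39 measured, 11 rose, 9 fell and 19 did not pass the test. Over all 12393 genes, 12.9% rose and 14.4% fell, and over the 7637 genes called present on all 4 arrays of a group, 19.3% rose and 22.4% fell. In either direction 27.3% of all genes and 41.7% of those called present passed. Among the 35 antioxidant genes that met the same detection criterion, 11 rose and 9 fell, which is 31.4% and 25.7%. The median log2 change of the 39 genes was 0.03, against -0.01 over all genes. No antioxidant gene that passed reached a 2-fold change on its brightest probe set in the main fit. The largest rise was in Glrx, glutaredoxin, whose second probe set reached 2.13-fold. The largest fall was in Gclm, the modifier subunit of the enzyme that starts glutathione synthesis.

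Normalized values of the groups did not overlap for 19 of the 20 genes that passed, all but Mgst1, and for 3 that did not pass, Txn1, Txnip and Prdx2. Groups did not overlap for 30.2% of all genes and for 45.2% of those called present on all 4 arrays of a group. The balance of rises and falls depended on the scaling: 7 rose and 11 fell with values as deposited, and 13 rose and 8 fell with each array centred on its median. Over all probe sets the median change was -0.07 without normalization, -0.02 with quantile normalization and 0.07 with median centring. Of the 20 genes that passed, 10 had several probe sets, and all probe sets shared the call for 3 of them, Glrx, Gsto1 and Sod3.

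**Figure D1:**
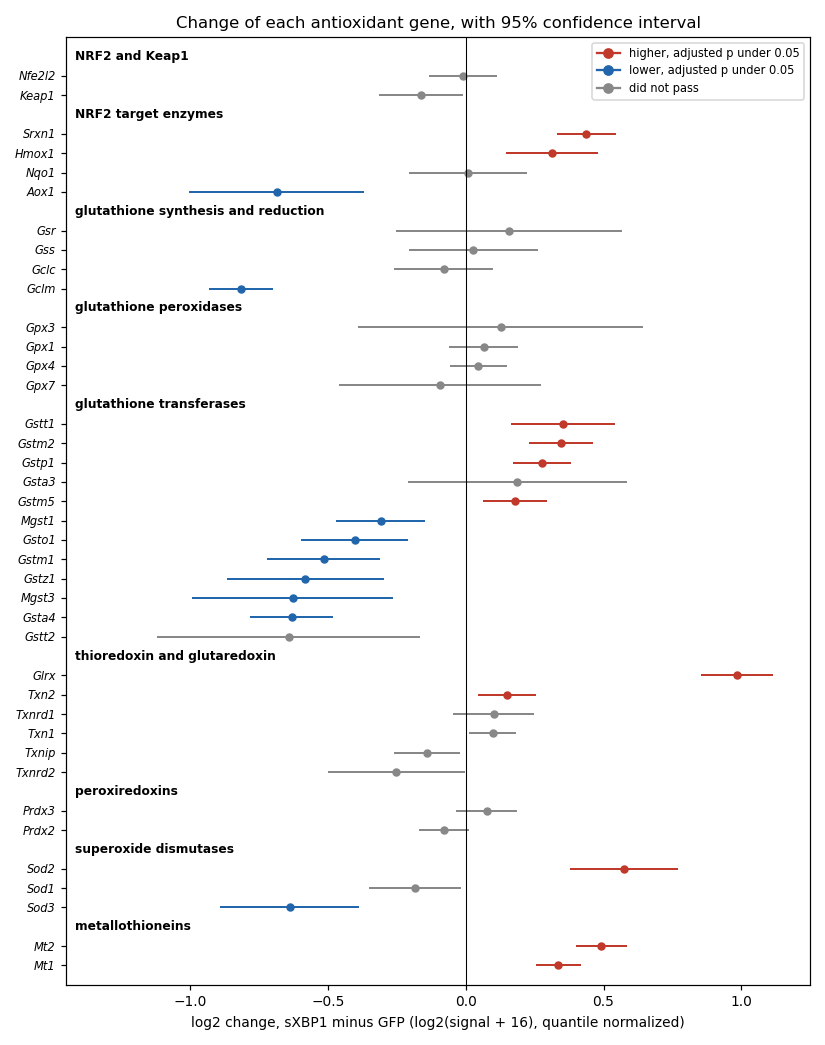
Log2 change (sXBP1 minus GFP) of the 39 measured antioxidant genes, ordered by role, as points with 95% confidence intervals from the limma fit on 4 arrays per group. Rises (red) and falls (blue) occur within the same roles, most of all among the glutathione transferases, where 4 rose and 6 fell.

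Neither NRF2 nor its inhibitor changed past the threshold. Nfe2l2 gave signals of 1066, 1156, 1124 and 1156 on GFP arrays 1 to 4 and of 969.9, 1070.5, 1081 and 1199 on sXBP1 arrays 1 to 4. The groups overlapped, and the log2 change was -0.01 ± 0.05 (adjusted p = 0.918, 95% confidence interval -0.13 to 0.11). Keap1 gave signals of 509, 616, 521 and 508 on GFP arrays 1 to 4 and of 446, 470.4, 407 and 457 on sXBP1 arrays 1 to 4. All sXBP1 signals lay below all GFP signals as deposited, but the normalized values overlapped, with a log2 change of -0.16 ± 0.07 (adjusted p = 0.11). The change of Keap1 was negative on both of its probe sets and passed on neither.

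The 4 NRF2 target enzymes outside the glutathione and thioredoxin systems split in direction. Nqo1 gave signals of 452, 574, 484 and 581 on GFP arrays 1 to 4 and of 536, 553, 404 and 480.3 on sXBP1 arrays 1 to 4. Nqo1, the quinone reductase commonly read as a marker of NRF2 activity, overlapped between groups and changed by 0.01 ± 0.09 (adjusted p = 0.97, 95% confidence interval -0.20 to 0.22). Hmox1 gave signals of 3056, 3802, 3131 and 3740.2 on GFP arrays 1 to 4 and of 3940.3, 4488, 3507 and 4816 on sXBP1 arrays 1 to 4. Hmox1, haem oxygenase, breaks haem into biliverdin, iron and carbon monoxide, and it rose by 0.31 ± 0.07 (adjusted p = 0.01). Its groups overlapped in the deposited signals, since sXBP1 array 3 lay below GFP array 2, and without normalization it did not pass (adjusted p = 0.089).

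Srxn1 encodes sulfiredoxin, which restores peroxiredoxins that peroxide has over-oxidised. Srxn1 gave signals of 1308, 1406, 1373 and 1399.7 on GFP arrays 1 to 4 and of 1694, 1722, 1741 and 2095 on sXBP1 arrays 1 to 4. Every sXBP1 array lay above every GFP array, and Srxn1 rose by 0.44 ± 0.05 (adjusted p = 8.4e-05). Of its 4 probe sets 2 rose, the other by 0.90 (adjusted p = 1.9e-04), while the remaining ones changed by 0.18 and -0.07 and did not pass. The brightest has the suffix _s_at, by which Affymetrix marks probes shared by several transcripts. Aox1 gave signals of 218, 230.3, 177 and 199 on GFP arrays 1 to 4 and of 133, 126, 83.9 and 100.1 on sXBP1 arrays 1 to 4. Aox1, aldehyde oxidase, was lower on every sXBP1 array, least on arrays 1 and 2, and fell by 0.69 ± 0.14 (adjusted p = 0.00496).

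In glutathione synthesis the modifier subunit fell, and the catalytic subunit did not pass. Glutamate-cysteine ligase, the rate-limiting enzyme, pairs the catalytic subunit Gclc with the modifier Gclm, which lowers the enzyme's sensitivity to feedback by glutathione. Gclm gave signals of 1058, 1116, 1016 and 1169 on GFP arrays 1 to 4 and of 572, 576, 543 and 643 on sXBP1 arrays 1 to 4. All sXBP1 signals lay far below all GFP signals, and Gclm fell by 0.82 ± 0.05, 1.76-fold lower (adjusted p = 3.1e-06). Gclc gave signals of 353, 488, 375 and 461 on GFP arrays 1 to 4 and of 337, 349.6, 353 and 420.0 on sXBP1 arrays 1 to 4. The groups overlapped, and Gclc changed by -0.08 ± 0.08 (adjusted p = 0.546, 95% confidence interval -0.26 to 0.10). The log2 change of Gclm minus that of the brightest Gclc probe set was -0.74 (two-sided exact permutation p = 0.0286, the smallest possible, or 0.0429 adjusted over 6 pairs). The tests of these 6 pairs were added after the values were seen, and the adjustment does not cover that choice. Gss, which completes glutathione, and Gsr, which reduces its oxidised form, changed by 0.03 ± 0.10 and 0.16 ± 0.18 (adjusted p = 0.896 and 0.617). Gsr varied widely among sXBP1 arrays, from 375 on array 3 to 799 on array 1.

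Promoters of the gene with the largest fall and of the NRF2 target Srxn1 are shown because NRF2 is known to act through antioxidant response elements. The sequences are RefSeq's for GRCm38.p6, 250 bases before to 50 after an annotated start, and capitals mark matches to TGANNNNGC, the element's core, on either strand.
Gclm, chr3:122245307-122245606, + strand: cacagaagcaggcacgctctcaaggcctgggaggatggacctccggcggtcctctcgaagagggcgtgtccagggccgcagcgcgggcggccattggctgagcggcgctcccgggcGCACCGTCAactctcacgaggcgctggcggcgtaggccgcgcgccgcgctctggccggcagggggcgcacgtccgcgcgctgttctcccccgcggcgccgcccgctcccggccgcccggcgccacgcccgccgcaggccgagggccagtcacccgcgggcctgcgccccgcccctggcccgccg
Srxn1, chr2:152105274-152105573, + strand: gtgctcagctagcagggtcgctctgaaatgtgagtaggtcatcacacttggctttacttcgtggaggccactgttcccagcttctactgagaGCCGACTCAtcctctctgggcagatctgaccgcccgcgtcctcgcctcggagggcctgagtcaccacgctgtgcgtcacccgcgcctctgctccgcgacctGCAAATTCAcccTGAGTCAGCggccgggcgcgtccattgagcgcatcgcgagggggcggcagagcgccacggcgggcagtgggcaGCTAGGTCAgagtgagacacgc
Gclm held 1 match, which begins 134 bases before the start. Srxn1 held 4, which begin 158, 57 and 45 bases before it and 28 after it. Among the 42 named genes 35 had a promoter in the table, and 16 of them, or 45.7%, held this core, against 45% of 27025 genes. The stricter TGACNNNGC, every match of which also matches TGANNNNGC, was found in 10 of the 35 (28.6%), against 14% of all genes. Nqo1 held neither in this window. These are matches of letters, and no binding was measured.

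The glutathione peroxidases, which reduce peroxides at the expense of glutathione, showed 0 rises and 0 falls among 4 by limma. At an unadjusted limma p under 0.05 the count was also 0. In either direction 27.3% of all genes and 41.7% of those called present on all 4 arrays of a group passed. A count over so few genes cannot be told apart from these shares. Gpx1 gave signals of 2724, 3455, 3418 and 3442 on GFP arrays 1 to 4 and of 3074, 3338, 3262 and 3611 on sXBP1 arrays 1 to 4. Gpx1, the abundant cytosolic selenoenzyme, overlapped between groups and changed by 0.06 ± 0.05 (adjusted p = 0.465). Gpx4, which reduces lipid peroxides in membranes and guards against ferroptosis, changed by 0.05 ± 0.04 (adjusted p = 0.546, 95% confidence interval -0.05 to 0.14), with signals of 7763 to 8385 on all 8 arrays. Gpx7, dim at 25.8 to 42.4, changed by -0.09 ± 0.16, and Gpx3, the secreted form, was called present on 0 of 8 arrays, with signals of at most 25.8.

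Glutathione transferases, which join glutathione to electrophiles, changed in both directions. Of 12 measured, 4 rose, 6 fell and 2, Gsta3 and Gstt2, did not pass. Gsta3 and Gstt2 were called present on 0 of 8 arrays and had log2 changes of 0.19 ± 0.18 and -0.64 ± 0.21 (adjusted p = 0.529 and 0.0508). The 10 others were called present on all 8 arrays, and each of them passed in 1 direction or the other, with normalized groups that did not overlap for 9. Of the 7637 genes called present on all 4 arrays of a group, 41.7% passed in either direction and 45.2% had groups that did not overlap. These probe sets belong to a family of close paralogs, so signal shared between members cannot be separated here.

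The 6 that fell were Gsta4, Gstm1, Gstz1, Gsto1, Mgst1 and Mgst3. Gsta4 gave signals of 670.2, 812, 754 and 796 on GFP arrays 1 to 4 and of 487, 454, 383 and 494 on sXBP1 arrays 1 to 4. Gsta4, known for clearing the lipid peroxidation aldehyde hydroxynonenal in fat, was lower on every sXBP1 array and fell by 0.63 ± 0.07 (adjusted p = 7.5e-05). Gstm1 gave signals of 1323, 1830.5, 1488 and 1632 on GFP arrays 1 to 4 and of 1175, 1037, 1042 and 969 on sXBP1 arrays 1 to 4. Gstm1, a major mu-class enzyme, fell by 0.52 ± 0.09 (adjusted p = 0.00202) without overlap, on 2 of 4 probe sets, and its brightest carries the suffix _x_at, which marks probes that may cross-hybridise. Gstz1 gave signals of 1288, 1550.3, 1338 and 1424 on GFP arrays 1 to 4 and of 1090.3, 990.5, 636 and 928 on sXBP1 arrays 1 to 4. Gstz1, which also acts in tyrosine breakdown, fell by 0.58 ± 0.13 (adjusted p = 0.00677), and sXBP1 array 3 was the lowest.

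Mgst3 gave signals of 3184, 3519, 3303 and 3845 on GFP arrays 1 to 4 and of 2693, 2588, 1428 and 2281 on sXBP1 arrays 1 to 4. The microsomal enzyme Mgst3 fell by 0.63 ± 0.16 (adjusted p = 0.0167) with no overlap, sXBP1 array 3 standing well below the others. Its dim second probe set changed by -0.13, and the mean of both did not pass (adjusted p = 0.111). Mgst1, the membrane-bound transferase, fell by 0.31 ± 0.07 (adjusted p = 0.0095), although sXBP1 array 2 at 8832 lay above GFP array 1 at 8430.1. It did not pass after median centring or with the mean of its probe sets (adjusted p = 0.0995 and 0.0742). The second Mgst1 probe set was called present on 0 arrays of either group, with signals of at most 21.0. That mean thus includes a probe set that was not detected. Gsto1 gave signals of 4017, 4759.6, 4162 and 4326 on GFP arrays 1 to 4 and of 2510.2, 3423, 3119 and 3822 on sXBP1 arrays 1 to 4. Gsto1, the omega-class enzyme that reduces dehydroascorbate, fell by 0.40 ± 0.09 (adjusted p = 0.00575), with every sXBP1 array below every GFP array, and its other probe set fell by 0.21.

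Gstm2 gave signals of 2495, 2758, 2589.7 and 2664 on GFP arrays 1 to 4 and of 3055, 3209, 2937 and 3921 on sXBP1 arrays 1 to 4. Gstm2, a neighbour of Gstm1 in the mu-class cluster, was higher on every sXBP1 array and rose by 0.35 ± 0.05 (adjusted p = 6.6e-04), so the mu class held genes that passed in opposite directions. Gstt1 gave signals of 249, 297, 247 and 308 on GFP arrays 1 to 4 and of 327, 285, 319.7 and 369.9 on sXBP1 arrays 1 to 4. Gstt1, a theta-class enzyme, rose by 0.35 ± 0.08 (adjusted p = 0.0104). Its deposited signals overlapped, and as deposited it did not pass (adjusted p = 0.184). Gstp1, the pi-class enzyme, rose by 0.28 ± 0.05 (adjusted p = 0.0015), from signals of 6803 to 8001 on GFP arrays to 8216 to 9529 on sXBP1 arrays. Gstm5 rose by 0.18 ± 0.05 (adjusted p = 0.0254), with deposited signals that overlapped. Gstm5 did not pass as deposited (adjusted p = 0.362), nor without GFP replicate 1, 3 or 4 or sXBP1 replicate 3 or 4 (adjusted p = 0.0656, 0.0727, 0.0568, 0.0587 and 0.058).

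**Figure D2:**
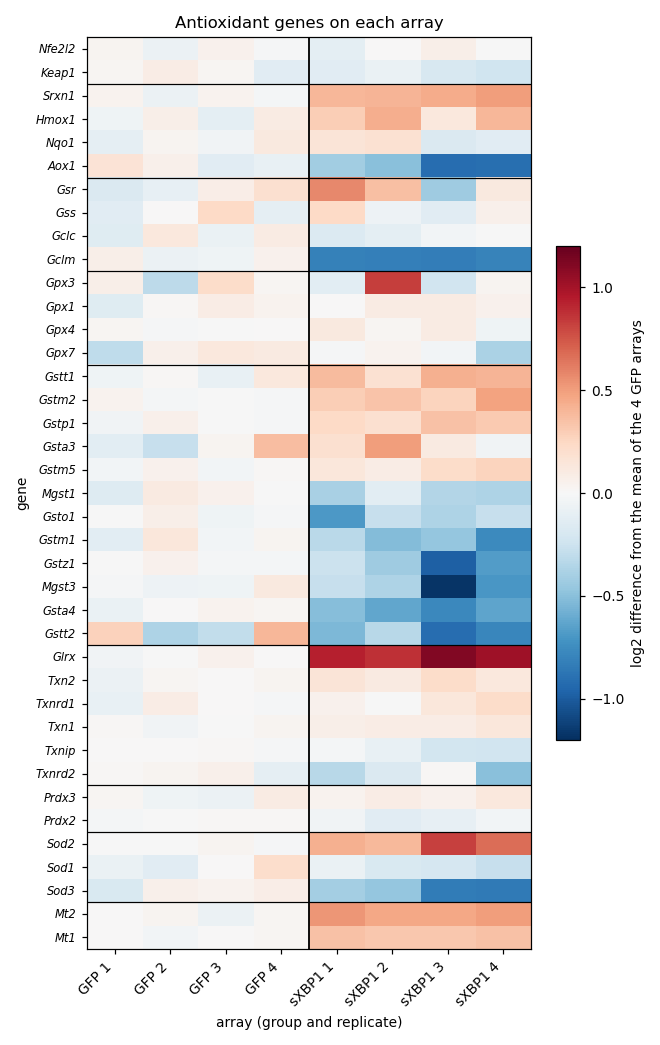
Each antioxidant gene (rows, by role) on each array (columns), coloured by its normalized log2 difference from the mean of the 4 GFP arrays. Glrx and Gclm differ from GFP by similar amounts on all 4 sXBP1 arrays, while Aox1, Sod2 and Sod3 differ more on the last pair of sXBP1 arrays, replicates 3 and 4.

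Among thioredoxin and glutaredoxin genes, glutaredoxin showed the largest change. Glrx gave signals of 901, 1066, 989.8 and 1029.9 on GFP arrays 1 to 4 and of 1769, 1725, 1999 and 2161 on sXBP1 arrays 1 to 4. Glrx, which removes glutathione from protein thiols, was higher on every sXBP1 array, the lowest of them still well above the highest GFP array. It rose by 0.98 ± 0.06, 1.98-fold (adjusted p = 2.3e-06), and its second probe set rose by 1.09 (adjusted p = 1.8e-06).

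Txnrd1 gave signals of 627, 822, 695 and 740.5 on GFP arrays 1 to 4 and of 684, 661, 709 and 878 on sXBP1 arrays 1 to 4. Txnrd1, the cytosolic thioredoxin reductase and an NRF2 target, overlapped between groups and changed by 0.10 ± 0.06 (adjusted p = 0.323, 95% confidence interval -0.04 to 0.24). Cytosolic Txn1 changed by 0.10 ± 0.04 (adjusted p = 0.0873), and it passed after median centring and where only detected probe sets were tested (adjusted p = 0.00764 and 0.0466). Mitochondrial Txn2 rose by 0.15 ± 0.05 (adjusted p = 0.0353) on 1 of 3 probe sets. This call was lost with values as deposited (adjusted p = 0.377), without any 1 of the GFP arrays (adjusted p = 0.0918, 0.0636, 0.076 and 0.0571 for replicates 1 to 4), and without sXBP1 replicate 1 or 3 (adjusted p = 0.0616 and 0.0796). Txnip, which binds and inhibits thioredoxin, changed by -0.14 ± 0.05 (adjusted p = 0.0813), and passed without sXBP1 replicate 1 (adjusted p = 0.0216). Txnrd2, the mitochondrial reductase, changed by -0.25 ± 0.11 (adjusted p = 0.134) and was called present on 3 GFP arrays and on 0 sXBP1 arrays. It passed without sXBP1 replicate 3 (adjusted p = 0.0353), and its log2 change ranged from -0.34 to -0.17 when each array was left out. Its second probe set, called present on 2 GFP arrays and 1 sXBP1 array, fell by 0.34 (adjusted p = 0.0368).

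Superoxide dismutases turn superoxide into peroxide in separate compartments, and each of the 3 gave a different result. Sod2 gave signals of 1975, 2269, 2146 and 2182 on GFP arrays 1 to 4 and of 2693, 2703, 3567 and 3645 on sXBP1 arrays 1 to 4. Mitochondrial Sod2, an NF-kB target, was higher on every sXBP1 array, most on arrays 3 and 4, and rose by 0.57 ± 0.09 (adjusted p = 7.9e-04). Its other probe sets changed by 0.39 and 0.37, of which the first passed (adjusted p = 8.8e-04). Sod1 gave signals of 2271, 2524, 2585 and 3091 on GFP arrays 1 to 4 and of 2348, 2223, 2107 and 2318 on sXBP1 arrays 1 to 4. Cytosolic Sod1 overlapped between groups and changed by -0.18 ± 0.07 (adjusted p = 0.104). Extracellular Sod3 gave signals of 690.1, 938, 833 and 913 on GFP arrays 1 to 4 and of 581, 566, 404 and 467 on sXBP1 arrays 1 to 4. Every sXBP1 array lay below every GFP array, and Sod3 fell by 0.64 ± 0.11 (adjusted p = 0.00197), also on its second probe set.

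Of the peroxiredoxins, which reduce peroxide through thioredoxin, 2 were measured and 0 passed by limma on their brightest probe sets. At an unadjusted limma p under 0.05 the count was also 0. Over all genes 27.3% passed, and 41.7% of those called present on all 4 arrays of a group, so 2 genes are too few to compare. Cytosolic Prdx2 changed by -0.08 ± 0.04 (adjusted p = 0.19) and mitochondrial Prdx3 by 0.08 ± 0.05 (adjusted p = 0.316). The second, dim Prdx2 probe set, called present on 1 of 8 arrays, changed by -0.43 without overlap (adjusted p = 0.0799), and Prdx2 passed with the mean of both (adjusted p = 0.0193). Mitochondrial and cytosolic counterparts were compared as differences between their log2 changes. Sod2 exceeded Sod1 by 0.76 (two-sided exact permutation p = 0.0286, 0.0429 adjusted over 6 pairs). The difference was 0.15 for Prdx3 minus Prdx2 and 0.05 for Txn2 minus Txn1 (exact permutation p = 0.0571 and 0.257, adjusted 0.0686 and 0.257). For Txnrd2 minus Txnrd1 it had the opposite sign, -0.35 (exact permutation p = 0.0286, adjusted 0.0429). That value is limited by detection, because the Txnrd2 probe set was called present on 0 sXBP1 arrays.

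**Figure D3:**
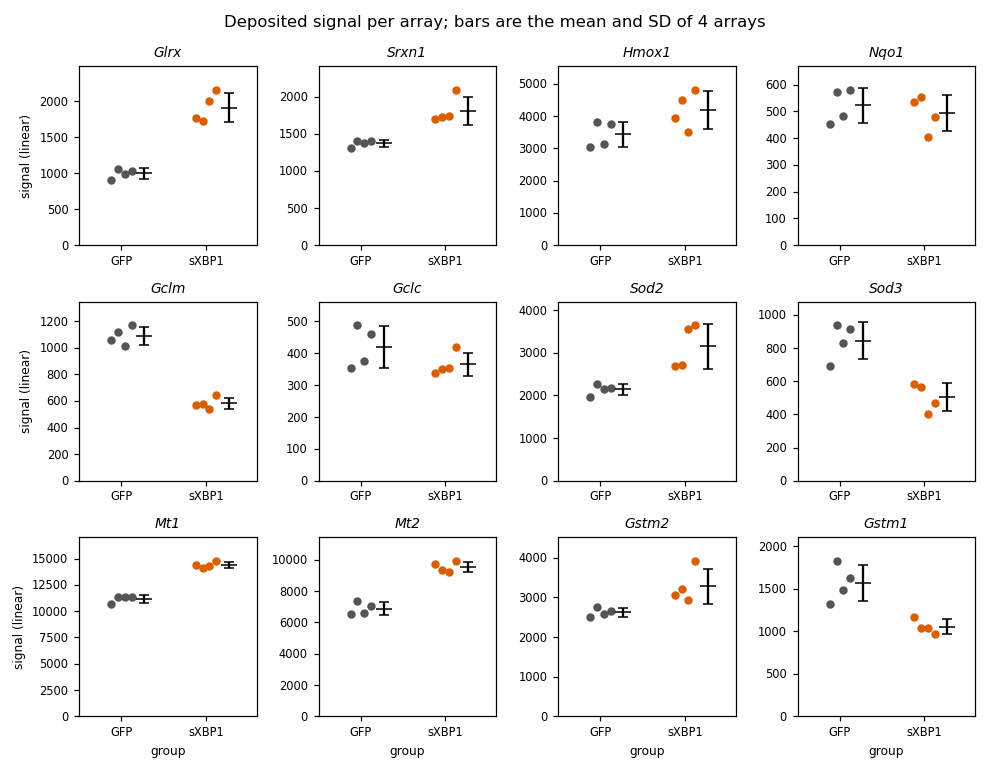
Deposited linear signal of 12 antioxidant genes on each array, 4 GFP (grey) and 4 sXBP1 (orange), with the mean and SD beside each group and axes from 0. Glrx, Srxn1, Sod2, Mt1, Mt2 and Gstm2 lie higher on every sXBP1 array, Gclm, Sod3 and Gstm1 lower, and Nqo1, Gclc and Hmox1 overlap.

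Both metallothioneins rose. These small cysteine-rich proteins bind zinc and copper, scavenge oxidants and are induced by metals through the factor MTF1, and by glucocorticoids and inflammation. Mt1 gave signals of 10646, 11372, 11324 and 11303 on GFP arrays 1 to 4 and of 14367, 14132, 14264 and 14788 on sXBP1 arrays 1 to 4. Mt2 gave signals of 6507, 7342, 6606 and 7076 on GFP arrays 1 to 4 and of 9736, 9323, 9228 and 9934 on sXBP1 arrays 1 to 4. For both genes the 4 arrays of a group lay close together and the groups were far apart. Mt1 rose by 0.34 ± 0.04 (adjusted p = 8.4e-05) and Mt2 rose by 0.49 ± 0.04 (adjusted p = 1.7e-05). Between the brightest probe sets, the rise of Mt2 exceeded that of Mt1 by 0.16 (two-sided exact permutation p = 0.0286, 0.0429 adjusted over 6 pairs). Whether this is a difference between genes or between probe sets was not tested. The Mt1 probe set is of the shared _s_at kind. A second, dim probe set for Mt1 also had a positive log2 change, 0.46, short of the threshold (adjusted p = 0.128).

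The promoters of Mt1 and Mt2, adjacent genes that rose together, are shown for their metal response elements, the sites of MTF1. The windows and build are as above, and capitals mark the cores TGCGCNC and TGCACNC on either strand and, in Mt1 alone, TGACGTG, a core of unfolded protein response elements, read on the opposite strand.
Mt1, chr8:94178839-94179138, + strand: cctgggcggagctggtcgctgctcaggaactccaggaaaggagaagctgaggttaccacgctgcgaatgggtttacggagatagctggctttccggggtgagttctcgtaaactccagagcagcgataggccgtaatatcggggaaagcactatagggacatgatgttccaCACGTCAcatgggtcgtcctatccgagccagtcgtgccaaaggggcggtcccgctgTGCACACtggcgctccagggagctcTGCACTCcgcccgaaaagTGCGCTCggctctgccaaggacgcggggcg
Mt2, chr8:94172368-94172667, + strand: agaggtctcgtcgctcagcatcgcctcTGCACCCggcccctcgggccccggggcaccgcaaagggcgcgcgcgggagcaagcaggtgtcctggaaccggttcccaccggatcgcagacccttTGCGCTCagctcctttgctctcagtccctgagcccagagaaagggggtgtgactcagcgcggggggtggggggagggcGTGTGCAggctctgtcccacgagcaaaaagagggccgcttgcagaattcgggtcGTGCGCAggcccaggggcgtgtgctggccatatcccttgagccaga
Mt1 held 3 metal element cores, 23 bases before the start and 2 and 20 after it, and Mt2 held 4. TGCGCNC was found in 9 of 35 promoters of named genes (25.7%) and in 17% of all genes, and TGCACNC in 4 (11.4%) against 14.2%. Only Mt1 of the 35 held TGACGTG, which begins 79 bases before the start. That is 2.86%, near the 2.22% of all genes. The shorter CCACG, part of an ER stress element, was found in 20 of the 35 (57.1%) and in 35.5% of all genes. GC content differs between promoters and was not matched, and a match is not a measured site.

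Other genes of NRF2 control and glutathione use were described from a separate list of 55 genes, of which 42 were measured. This list too was chosen with earlier results of these data known. Of the 42 measured, 8 rose, 13 fell and 21 did not pass. That is 19.0% and 31.0%, beside 12.9% and 14.4% of all genes and 19.3% and 22.4% of those called present on all 4 arrays of a group. The share of rises was thus near that of detected genes, and 33 of the 42 were called present on all 8 arrays. Among the 7 NRF2 partners and repressors 2 rose and 0 fell. Bach1, which competes with NRF2 at response elements, rose by 0.51 ± 0.07 (adjusted p = 5.6e-04) on 1 of 2 probe sets, and Sqstm1, the Keap1-binding autophagy receptor p62, rose by 0.45 ± 0.05 (adjusted p = 9.4e-05). The small MAF genes Mafg, Mafk and Maff did not pass.

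Of 15 other NRF2 targets 1 rose and 9 fell, or 6.67% and 60.0%, beside 12.9% and 14.4% of all genes and 19.3% and 22.4% of those called present on all 4 arrays of a group. In this list 14 of the 15 were called present on all 8 arrays. Those that fell were Me1, Taldo1, Cbr1, Blvrb, Idh1, Blvra, Abcc1, Tkt and Fth1. Me1, malic enzyme, fell by 0.64 ± 0.11 and Taldo1, transaldolase, fell by 0.62 ± 0.08 (adjusted p = 0.0018 and 2.7e-04). Pgd, phosphogluconate dehydrogenase, rose by 0.35 ± 0.05 (adjusted p = 8.8e-04) on 4 of 4 probe sets. Slc7a11, the cystine importer that feeds glutathione synthesis, was dim and changed by 0.70 ± 0.28 (adjusted p = 0.102), with 0 of 4 present calls in GFP and 2 of 4 in sXBP1 samples.

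Of 14 genes of glutathione turnover and use 4 rose and 4 fell, or 28.6% each. Among genes called present on all 4 arrays of a group 19.3% rose and 22.4% fell, and among all genes 12.9% and 14.4%. Gstk1 gave signals of 14.9, 21.9, 23.2 and 12.5 on GFP arrays 1 to 4 and of 120.4, 124, 225 and 264 on sXBP1 arrays 1 to 4. Gstk1, the kappa-class transferase of mitochondria and peroxisomes, was called present on 0 GFP arrays and 4 sXBP1 arrays. Gstk1 rose (adjusted p = 4.1e-05, 95% confidence interval of the log2 change 2.02 to 3.08). With GFP values raised to a detection floor, the estimated rise was 5.84-fold. For that estimate, each GFP array was given the lowest level of any probe set present on all GFP arrays. Where the Gstk1 value was higher, it was kept. The floor allows for detection but not for spread between arrays, so 5.84-fold is not a lower limit. Chac1 and Chac2, both of which break glutathione down, moved apart: Chac1 rose by 0.38 ± 0.07 and Chac2 fell by 0.55 ± 0.13 (adjusted p = 0.00193 and 0.0112). Among 6 genes for oxidant sources, Xdh, xanthine dehydrogenase, rose by 0.84 ± 0.04 (adjusted p = 1.5e-06), and the phagocyte oxidase genes Cybb, Cyba, Ncf1 and Ncf4 were called present on 0 of 8 arrays.

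Enzymes left out by the rule are given for comparison. Cat, catalase, which clears peroxide in peroxisomes, fell by 1.36 ± 0.06 (adjusted p = 8.8e-07) on 2 of 2 probe sets, from 4082 ± 399 to 1548 ± 120.0 (SD, n = 4). Prdx4, the ER peroxiredoxin, rose by 0.39 ± 0.04 (adjusted p = 9.3e-05) on 1 of 3 probe sets, and Gpx8, an ER-resident peroxidase, changed by 0.02 ± 0.08 (adjusted p = 0.882).

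**Figure D4:**
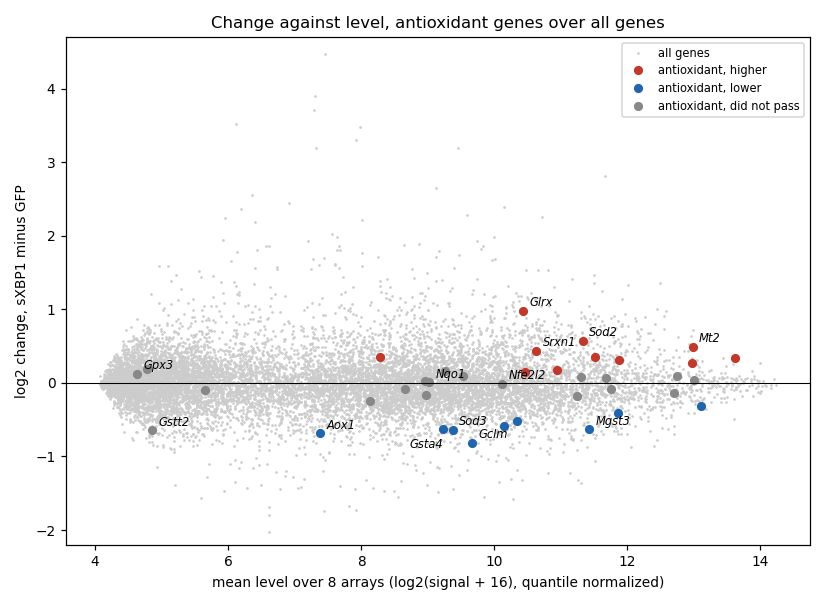
Log2 change (sXBP1 minus GFP) against mean normalized log2 level over the 8 arrays, for 12393 genes (light grey) and the 39 antioxidant genes (coloured by call). The antioxidant genes span -0.82 (Gclm) to 0.98 (Glrx), while all genes span -2.03 to 4.47.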

How the data were processed

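Arrays of 8 samples, 4 per group, were analysed, grouped and numbered by the titles in the labels. The authors deposited 1 linear intensity per probe set and array, computed in MAS5 according to the submitters' processing notes. Neither its version nor a scaling target is stated in the sources. A second table deposited by the authors, of 18394 probe sets, gave present or absent calls. Its signed fold change and its score, both calculated by the authors before they deposited it, were not used.

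Of 22690 probe sets 64 controls were left out. A single symbol was given by the platform annotation for 20380 probe sets, several for 691 and none for 1555. Quantile normalization was applied to log2(signal + 16), since means after trimming 2% at each end ranged from 492 to 574 between arrays. On this scale the changes of dim genes are understated. The main test was a two-sided limma fit with a variance trend (version 3.58.1, under R 4.3.3), adjusted by Benjamini-Hochberg over 22626 probe sets. The fit was tested on simulated data. A set of 6 pairs of members with related functions were compared by exact permutation, a test added after the values were seen. The number of arrays limits the precision.

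Members and lists were chosen with earlier results of these data known. Signals on all 8 arrays are given for the 8 largest rises and 8 largest falls among members past the threshold with groups that did not overlap, and for 12 members fixed by name; other members are given by log2 change, and the wider list by its 3 largest rises and falls. Others named were chosen after their values were seen. Alternatives were no normalization, median centring, pseudocounts of 1 and 64, no trend, a detection filter, the mean of probe sets, a replicate block and each array left out. Promoters and their coordinates came from RefSeq (GRCm38.p6); probe sets were not placed on the genome. Figures were drawn with matplotlib 3.10.9.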

Additional observations from a re-analysis of the deposited data

Results flagged for a closer look

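For each of the 39 genes the 4 arrays of each group were examined for 1 array apart from the others, by the gap to its nearest neighbour divided by the group's range, against Dixon's critical value. Among 78 such groups 3 passed, where chance gives about 1 in 20. Sod3 on GFP replicate 1 was the lowest of its group (690.1; ratio 0.885), and the fall of Sod3 without that array was -0.70 (adjusted p = 0.00272). Mgst1 on sXBP1 replicate 2 was the highest of its group (8832; ratio 0.854), and without it Mgst1 changed by -0.37 (adjusted p = 0.00204). Gpx7 on GFP replicate 1 was the lowest of its dim group (25.8; ratio 0.842), and Gpx7 did not pass with or without that array.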

How the results depend on the processing

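Of the 20 genes that passed, 0 changed sign under any of the 16 alternatives. Gstm5 and Txn2 lost the call most often, in 8 and 10 of them. With values as deposited, 7 antioxidant genes rose in place of 11 (Hmox1, Gstt1, Gstm5 and Txn2 were lost), and the median change was -0.0616. It was 0.0829 after median centring, -0.0025 with the mean of all probe sets and -0.0179 to 0.0565 when each array was left out. Numbers of rises and falls then ranged from 9 to 11 and from 9 to 10, and in the wider list from 8 to 10 and from 12 to 13. Gains were Gstt2 (adjusted p = 0.0345, 0.0461 and 0.0397 without GFP replicate 2 or 3 or sXBP1 replicate 2; 0.0495 as deposited; 0.0479 with the mean of all probe sets, as with Prdx2, 0.0193, and Txnrd2, 0.0171), Txnrd2 as deposited (0.0267), Prdx3 after median centring (0.0287) and Txnip with the detection filter (0.0398).

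Genes near 0 changed sign without passing: Nqo1 (-0.0839), Gss (-0.0717) and Gpx8 (-0.0263) as deposited, Nfe2l2 (0.0829) and Prdx2 (0.0298) after median centring, and Gsta3 (-0.0025) and Txn1 (-0.0933) with the mean of all probe sets. Leaving out 1 array gave -0.0366 to 0.0252 for Nfe2l2, -0.051 to 0.065 for Nqo1, -0.0457 to 0.11 for Gss, -0.11 to 0.25 for Gpx3, -0.20 to 0.0003 for Gpx7 and -0.0315 to 0.0698 for Gpx8. The causes were not tested.

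With the replicate block 9 genes rose and 9 fell, Gstm5 and Txn2 being lost (adjusted p = 0.0526 and 0.0745). Same-numbered arrays share only a number: their deviations from the group means correlated at 0.12, 0.03, -0.09 and 0.11 over 11313 probe sets, which are not independent, and not every array correlated best with its own number. Dim signals limit Gpx3, Gpx7, Gsta3 and Gstt2, of which Gpx7 was called present on some arrays.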

Other observations

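Prdx1, a cytosolic peroxiredoxin and NRF2 target, had 5 probe sets that also name Gm21399 and so fell outside the rule. Their log2 changes were -0.02, -0.33, 0.07, 0.10 and -0.03, and 0 passed by limma, while 1 was under 0.05 before adjustment. That probe set averaged 8774 ± 319.8 in GFP and 9229 ± 566 in sXBP1 samples (SD, n = 4).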
